A study of Mus musculus with 16 samples.

Results

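The defensin genes on the array were taken as every gene whose name in the scanner output begins with Defa, Defb or Defcr. This rule gave 64 of 36870 gene names, measured by 77 of 56605 probes. Of these, 21 genes (28 probes) were alpha-defensins, 43 genes (49 probes) were beta-defensins, and no name began with Defcr. RNA came from the colon of 16 RjOrl:SWISS pups, an outbred stock, at weaning, with 1 pup per one-colour array. Delivery was by hysterectomy close to term for the 8 CSD pups and vaginal for the 8 VD pups. Every pup was raised by a mother other than its own. For CSD pups this was a female with a recent vaginal birth, and VD litters were swapped between their mothers. The CSD pups came from mothers 3 and 4, with 2 females and 2 males each. The VD pups came from mother 5 (2 females and 3 males) and mother 6 (3 males). No mother gave pups to both groups, so delivery mode and litter could be told apart only through the spread between 4 litters. Each of the 2 slides carried 4 CSD and 4 VD arrays.

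Defensins are small cationic peptides held together by disulphide bonds that damage microbial membranes. In the mouse gut the alpha-defensins are called cryptdins and are products of Paneth cells, the granular cells at the base of small intestinal crypts. They are stored as precursors that the metalloproteinase matrilysin (Mmp7) cuts into the active form. The cryptdin-related sequence (CRS) peptides share the leader of the cryptdins but carry repeated cysteine-containing units in the mature part. The beta-defensins are made by many epithelia, and a large number of the mouse genes are known mainly from the epididymis. The healthy colon is not normally home to Paneth cells.

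The 60-base probes show why the members could not be treated as separate measurements, so some of them are printed here. They are the probe sequences of the array files, 5′ to 3′, with positions on mouse build mm9. The first set holds 3 cryptdin probes that overlap the same stretch of closely related transcripts, with capitals at the bases that differ from the Defa3 probe. The Defa3 probe lies at chr8:22427899-22427958 on the plus strand and the Defa27 probe at chr8:22456000-22456059 on the plus strand. The Defa1 probe has no position in the files.
Defa3: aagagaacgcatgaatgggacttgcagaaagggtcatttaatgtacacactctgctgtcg
Defa1: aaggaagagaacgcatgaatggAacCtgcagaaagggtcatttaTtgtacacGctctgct
Defa27: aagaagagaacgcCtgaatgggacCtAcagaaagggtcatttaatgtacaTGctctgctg
The Defa1 probe matched the Defa3 probe at 52 of 56 overlapping bases, and the Defa27 probe matched it at 52 of 57. Of the 28 alpha-defensin probes, 17 shared a run of at least 20 bases with a probe of another gene and 15 were annotated to more than 1 RefSeq transcript. None of the 49 beta-defensin probes did either. The level of an alpha-defensin measured by such a probe is therefore uncertain between neighbouring copies.

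The second set holds the 3 alpha-defensin probes detected on all 16 arrays that carry at least 2 copies of TGCCC, with capitals at each copy. They belong to the CRS genes Defa-rs10 and Defa-rs12 and to Defa31. The motif recurs in the stretch that encodes the repeated cysteine and proline units of CRS peptides.
Defa-rs10: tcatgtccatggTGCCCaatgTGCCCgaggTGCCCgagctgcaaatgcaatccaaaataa
Defa-rs12: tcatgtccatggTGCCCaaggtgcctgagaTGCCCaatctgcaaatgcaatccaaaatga
Defa31: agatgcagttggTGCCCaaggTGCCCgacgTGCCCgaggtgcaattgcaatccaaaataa
The Defa-rs10 probe was identical to the Defa-rs12 probe at 54 of 60 bases and to the Defa31 probe at 50. Over all probes of the array, read on either strand, 8.09% held at least 1 copy of TGCCC, 0.212% (120 probes) held at least 2, and 5 probes held 3. Defa-rs10 and Defa31 are among those 5, and Defa-rs4 is another defensin whose probe holds 2 copies. The match is a description of the probe letters only.

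The third set holds beta-defensins described later. The Defb15 probe (chr8:23040417-23040476, minus strand) and the Defb34 probe (chr8:19126406-19126465, plus strand) differ at the bases in capitals and matched at 54 of 60 positions. The Defb7 probe (chr8:19497669-19497728, plus strand) is shown without capitals.
Defb15: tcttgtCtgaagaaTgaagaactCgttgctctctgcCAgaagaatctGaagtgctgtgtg
Defb34: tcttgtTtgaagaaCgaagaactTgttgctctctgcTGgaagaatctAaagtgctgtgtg
Defb7: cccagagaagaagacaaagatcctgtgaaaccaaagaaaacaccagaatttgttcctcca

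Levels are given as log2 of the background-corrected, quantile-normalized signal, averaged over the probes of a gene. Signals of different probes are not on one scale of abundance, and no order of abundance between genes is read from them. A constant of 50 was added before the logarithm, so differences understate the change of dim probes. A gene was taken as detected on an array when at least 1 of its probes was marked well above background by the scanner software. The array of VD pup 11 stood apart from the others. On it 58.7% of spots were well above background, against 61.6% to 64.9% on the other arrays, and the counts of genes detected on every array and on none, and the difference of Defb7, are also given without it.

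Few defensin genes were detected in the colon. Of 64 members, 5 were well above background on all 16 arrays, 8 on 8 to 15 arrays, 5 on 4 to 7, 16 on 1 to 3, and 30 on none. Over all gene names of the array, 55.9% were detected on 16 arrays and 25.5% on none. For the defensins the corresponding shares were 7.81% and 46.9%. Without VD pup 11, 7 members were detected on every array and 32 on none. The genes present throughout were the CRS genes Defa-rs10, Defa-rs12 and Defa-rs2, the alpha-defensin Defa31 and the beta-defensin Defb45. Of the 21 alpha-defensins, 14 were detected on at least 1 array, and of the 43 beta-defensins, 20 were. These counts include Defa-ps1 and Defb41, each detected only on the array of VD pup 11. The number of defensin genes detected per array ran from 11 to 18 in CSD pups (median 15) and from 7 to 16 in VD pups (median 14), so the groups overlapped, and the lowest number was that of VD pup 11.

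**Figure D1:**
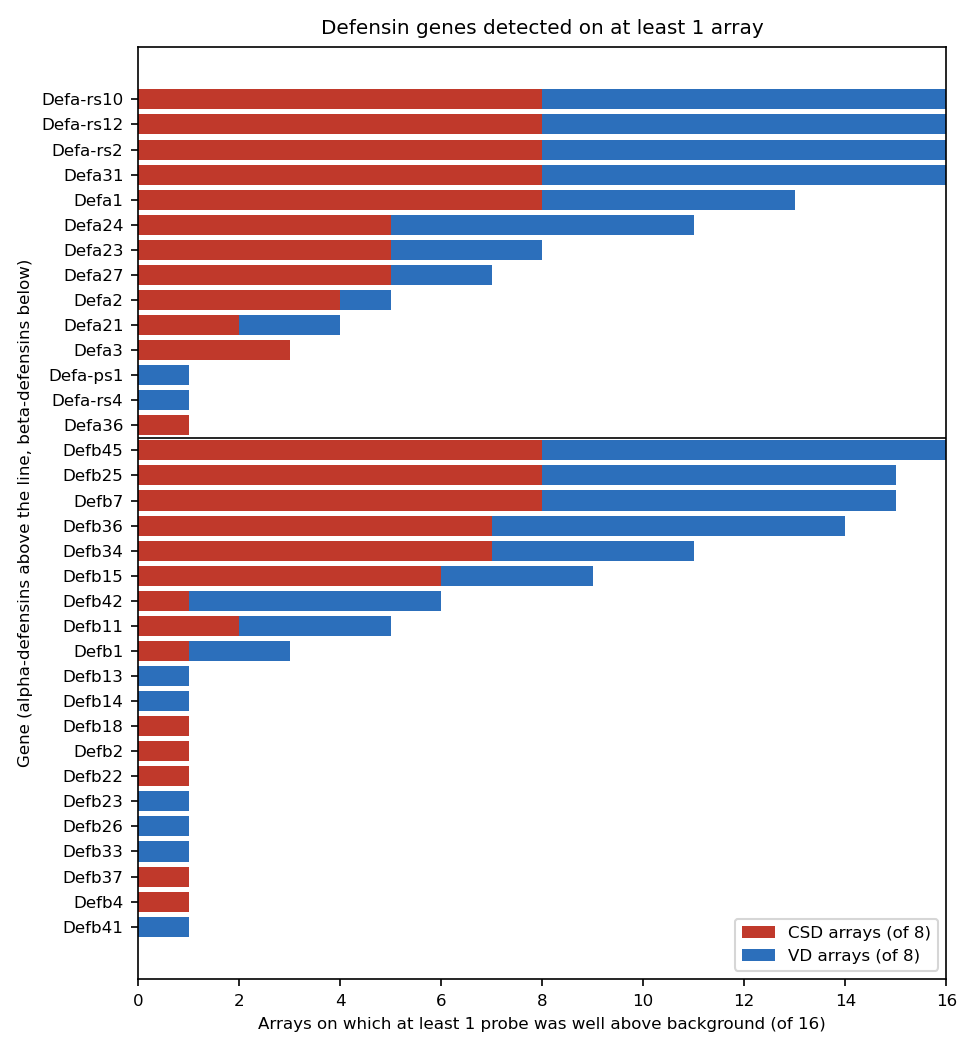
Horizontal bars show, for each defensin gene detected at least once, the number of CSD arrays and of VD arrays on which a probe was well above background (16 arrays in all, alpha-defensins above the line and beta-defensins below it). The 5 genes whose bars reach 16 are Defa-rs10, Defa-rs12, Defa-rs2, Defa31 and Defb45.

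The arrays compared the colon of pups by delivery mode, in a study of C-section birth and the gut barrier. No defensin gene passed the test between CSD and VD pups. With limma, delivery and sex as fixed effects and mother as a random effect, 0 of 63 tested members had an adjusted p below 0.05, where 1.25% of all 36711 genes did (0.706% higher and 0.548% lower in CSD pups). At an unadjusted p below 0.05 there were 3 members, all higher in CSD pups: Defb7, Defa27 and Defa26. Over all genes 14.5% passed that mark, 7.37% higher and 7.09% lower in CSD pups. At an adjusted p below 0.1 there was 1 member, Defb7, against 3.07% of all genes. The fitted difference was above 0 for 36 members and below 0 for 27, with a median of 0.01 log2 units against 0.0029 over all genes tested. Among the alpha-defensins, 16 differences were above 0 and 5 below, with a median of 0.07 and a range of −0.18 to 0.33. Among the beta-defensins, 20 were above 0 and 22 below, with a median of −0.0023. These alpha-defensin values are not independent, because the probes overlap in sequence. The CSD and VD values overlapped for every one of the 63 members, where 0.496% of all genes had groups that did not overlap.

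**Figure D2:**
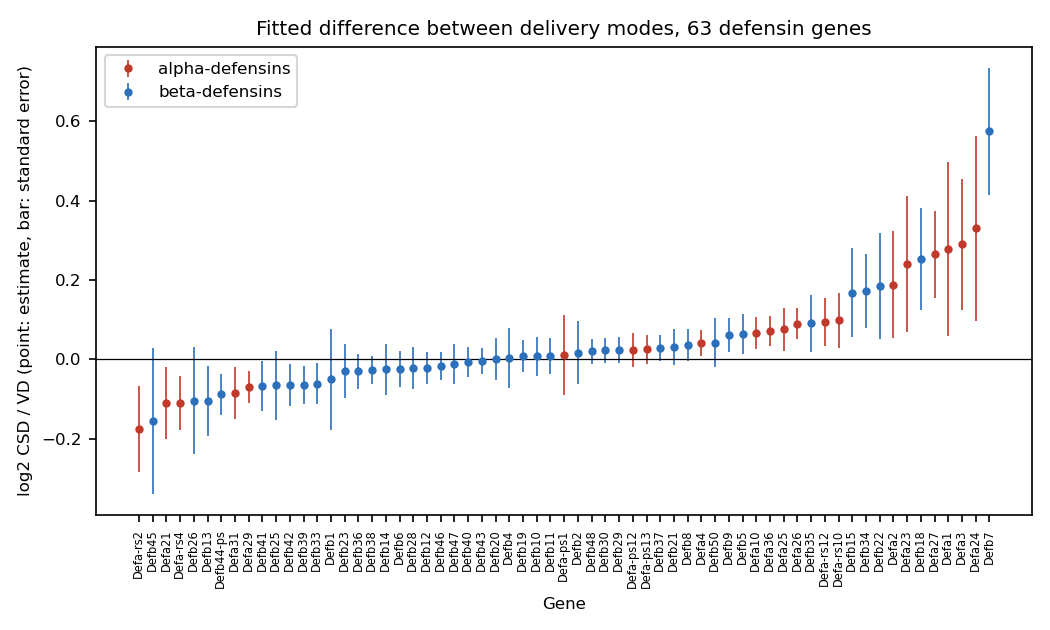
Points show the fitted log2 difference of CSD over VD pups for the 63 tested defensin genes and bars its standard error (8 pups per group, except 7 CSD pups for Defa27 and Defb37). Defb7, at 0.57, is the one member with a difference above 0.5 in size, and no point passed the test at an adjusted p of 0.05.

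The alpha-defensins detected on all 16 arrays were the CRS genes Defa-rs10, Defa-rs12 and Defa-rs2 and the gene Defa31. Defa-rs10 ranged from 8.71 to 8.99 in CSD pups (median 8.77) and from 8.62 to 9.06 in VD pups (median 8.67). Its means were 8.82 ± 0.12 (SD, n = 8) and 8.75 ± 0.16 (n = 8), a fitted difference of 0.10 ± 0.07 (SE) with a limma adjusted p of 0.560. Both the highest value (VD pup 6) and the lowest (VD pup 5) belonged to VD pups, and the CSD values all lay between them. For Defa-rs12 the CSD pups averaged 6.92 ± 0.16 and the VD pups 6.84 ± 0.05 (SD, n = 8 each; limma adjusted p = 0.521). CSD pup 8 was highest, at 7.28, and the fitted difference was 0.09 with that pup and 0.027 without it.

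Defa-rs2 and Defa31 were lower on average in CSD pups, but not past the test. For Defa-rs2 the CSD pups averaged 7.03 ± 0.20 and the VD pups 7.25 ± 0.24 (SD, n = 8 each), with a fitted difference of −0.18 ± 0.11 (SE; limma adjusted p = 0.495). For Defa31 the averages were 6.44 ± 0.12 and 6.55 ± 0.14 (SD, n = 8 each; limma adjusted p = 0.605). Its fitted difference was −0.085, against −0.045 without CSD pup 7 and −0.295 from the scanner's processed signal with quantile normalization. Of the 2 Defa31 probes, the one printed above was well above background on 16 arrays and the other on none. Over the 16 arrays, which share normalization, the 6 pairs of these 4 genes correlated with r from 0.039 to 0.798 (median 0.417), the highest being that of Defa-rs2 and Defa31. The genes outside the defensins most like the median of these 4 alpha-defensins were Tgm1, a transglutaminase (r = 0.876), Bpifa5 (0.850), Mthfd2, a mitochondrial folate enzyme (0.828), Galk1, a galactokinase (0.824) and Ada, adenosine deaminase (0.819), over 16 arrays.

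**Figure D3:**
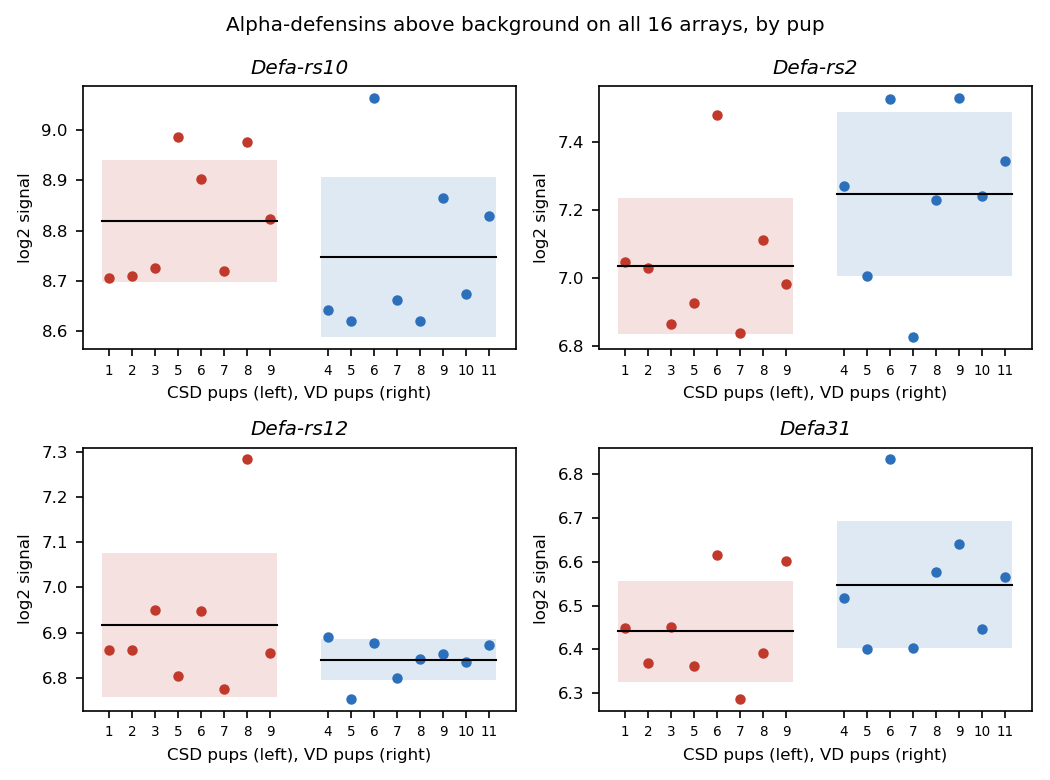
Log2 signal of the alpha-defensins detected on all 16 arrays, 1 point per pup (pup numbers on the axis, CSD left and VD right, line at the group mean, shading 1 SD either side). The CSD and VD points overlap in each panel, and the Defa-rs12 value of CSD pup 8 lies at 7.28 above the rest.

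The cryptdin genes Defa24, Defa1, Defa23 and Defa3 varied far more between CSD pups than between VD pups, and the highest values belonged to a few CSD animals. Defa24, detected on 5 CSD and 6 VD arrays, ran from 6.32 to 8.04 in CSD pups (median 6.77) and from 6.32 to 6.91 in VD pups (median 6.53). Its means were 6.94 ± 0.65 and 6.54 ± 0.19 (SD, n = 8 each), a fitted difference of 0.33 ± 0.23 (SE; limma adjusted p = 0.564). CSD pup 2 was highest at 8.04, followed by CSD pup 5 at 7.70, CSD pup 8 at 7.14 and CSD pup 9 at 6.98. All VD values were below these 4, and the other 4 CSD pups ran from 6.32 to 6.57, with CSD pup 7 the lowest of all 16 pups. CSD pup 2 came from mother 4 and the other 3 pups from mother 3. CSD pups 2 and 5 were female, and CSD pups 8 and 9 male. Within slides the fitted difference was 0.17 on slide 1 and 0.50 on slide 2, and without CSD pup 2 it was 0.22, none past the test (lowest limma adjusted p = 0.617). The difference in spread was not tested. Fitted differences of males minus females were −0.27 for Defa24, −0.26 for Defa1, −0.30 for Defa23 and −0.24 for Defa3. None passed the test (limma adjusted p from 0.832 to 0.878).

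CSD pups 2 and 5 were also the highest for Defa1, Defa23 and Defa3, whose probes share sequence with related genes. CSD pups 8 and 9 lay above every VD value for Defa23 and Defa3 but not for Defa1. Defa1, detected on 8 CSD and 5 VD arrays, ran from 6.23 to 7.76 in CSD pups (median 6.67) and from 6.15 to 6.78 in VD pups (median 6.40), with a fitted difference of 0.28 ± 0.22 (SE; limma adjusted p = 0.618), which was 0.18 without CSD pup 2 and −0.19 without the litter of mother 5. CSD pups 2 and 5 were highest, at 7.76 and 7.65. The Defa1 probes disagreed: probe A_55_P1999108 averaged 7.20 in CSD and 6.58 in VD pups, probe A_55_P2068510 6.80 and 6.35, and probe A_55_P1999110, the one whose sequence is printed above, 6.39 and 6.42. For Defa23 the averages were 6.53 ± 0.50 for CSD and 6.21 ± 0.15 for VD (SD, n = 8 each; limma adjusted p = 0.572), with CSD pups 2 and 5 at 7.43 and 7.15. Its fitted difference was 0.24, and 0.15 without CSD pup 2.

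Defa3 was well above background on 3 CSD arrays and on no VD array. It ran from 6.04 to 7.30 in CSD pups (median 6.25) and from 5.94 to 6.31 in VD pups (median 6.12). The fitted difference was 0.29 ± 0.17 (SE; limma adjusted p = 0.456), and 1.32 from the scanner's processed signal scaled to the 75th percentile, also not past the test. No VD value and 3 of the 8 CSD values were well above background, so the VD side of this difference is signal near background. The highest CSD values were 7.30 in pup 2, 7.12 in pup 5 and 6.51 in pup 9. In whole colon RNA, fewer cells of a type and less RNA per cell cannot be told apart.

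**Figure D4:**
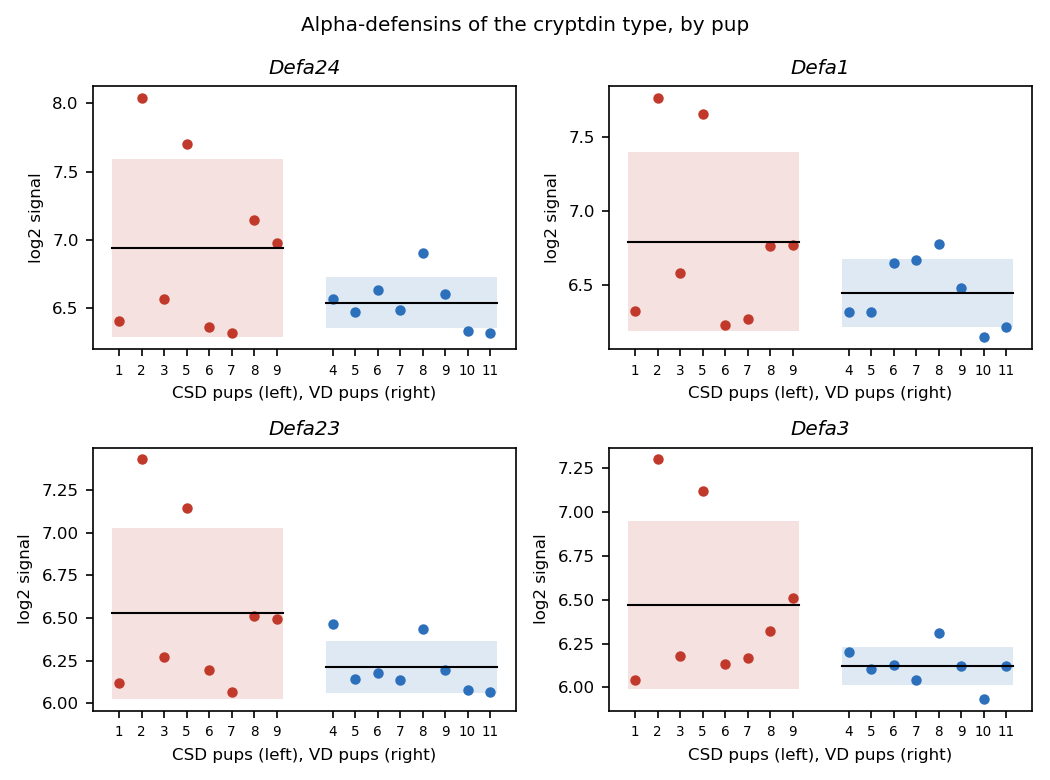
Log2 signal of Defa24, Defa1, Defa23 and Defa3, 1 point per pup (pup numbers on the axis, CSD left and VD right, line at the group mean, shading 1 SD either side). CSD pups 2 and 5 are highest in every panel, at 8.04 and 7.70 for Defa24, while VD pups stay at or below 6.91.

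Across the 16 arrays the values of Defa24 correlated with those of Defa1 (r = 0.966), Defa23 (0.972) and Defa3 (0.955), as a description over arrays that share normalization and probes with related sequences. Without CSD pups 2 and 5 the values were 0.859, 0.876 and 0.799. For Defa27, whose printed probe matches that of Defa3 at 52 of 57 bases, r with Defa24 was 0.49 over 15 arrays. It was −0.037 without CSD pups 2 and 8. The array left out was that of CSD pup 5, second highest for Defa24, whose Defa27 spot was marked as an outlier. That spot had the highest raw intensity, 735 against 34 to 107, so these values cannot be set against those above. Outside the defensins, Pnliprp2, a pancreatic-type lipase, had r = 0.925 with Defa24 and 0.788 without CSD pups 2 and 5, and Clps, its colipase partner, 0.796 and 0.539. For Pnliprp2, CSD pup 5 was at 7.26 and CSD pup 2 at 7.13, above all other pups. The Paneth cell protease Mmp7 had r = 0.288, the secretory phospholipase Pla2g2a 0.475, the ribonuclease Ang4 0.594, the mucosal pentraxin gene Mptx2 0.694 and the lysozyme gene Lyz1 −0.564. Without CSD pups 2 and 5 these were 0.447, 0.642, 0.411, 0.515 and −0.29.

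Defa27 and Defa26 were the alpha-defensins with the smallest unadjusted p, and neither passed the test. Defa27, detected on 5 CSD and 2 VD arrays, averaged 6.68 ± 0.33 over 7 CSD pups and 6.36 ± 0.18 over 8 VD pups (SD). The fitted difference was 0.26 ± 0.11 (SE; limma adjusted p = 0.275). The CSD mean, unlike the detection count, leaves out CSD pup 5, whose Defa27 spot was marked as an outlier by the scanner software, with a mean raw intensity of 735 where the other arrays had 34 to 107. With that spot kept, the fitted difference was 0.51. From the scanner's processed signal with quantile normalization it was 0.95, and with same-numbered pups as a block 0.12, neither past the test. Defa26 was not well above background on any array (6.00 and 5.91 on average, limma adjusted p = 0.294), nor was Defa36 on more than 1 (6.08 and 6.00, limma adjusted p = 0.409), so their values describe signal near background.

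Among the beta-defensins, Defb45 was the one detected on all 16 arrays. The CSD pups averaged 10.22 ± 0.39 and the VD pups 10.40 ± 0.34 (SD, n = 8 each), with a fitted difference of −0.16 ± 0.18 (SE; limma adjusted p = 0.763), and the groups overlapped. Without CSD pup 7 the difference was −0.013 and without VD pup 4 −0.26, and it was above 0 on slide 2 and without the litter of mother 4 or 5. Defb25 was detected on 8 CSD and 7 VD arrays, at 6.59 ± 0.14 and 6.66 ± 0.19 (SD, n = 8 each). Its fitted difference was −0.066, and −0.011 without VD pup 6. Defb36, which was named after its values were seen, was detected on 7 and 7 arrays, at 6.59 ± 0.05 and 6.62 ± 0.10. Defb1, a beta-defensin made constitutively by many epithelia, was near background, detected on 1 CSD and 2 VD arrays at 6.16 and 6.17 (limma adjusted p = 0.90).

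Defb7 had the smallest p of all defensin genes. It ran from 6.90 to 8.08 in CSD pups (median 7.42) and from 6.25 to 7.28 in VD pups (median 6.68). The groups overlapped, with 5 of the 8 CSD pups higher than the highest VD pup. The means were 7.44 ± 0.39 and 6.76 ± 0.36 (SD, n = 8 each), a fitted difference of 0.57 ± 0.16 (SE) with a limma adjusted p of 0.092. Within slides the fitted difference was 0.50 on slide 1 (limma adjusted p = 0.638) and 0.64 on slide 2 (0.349), and with slide as a term 0.57 (0.082). It was 0.53 without VD pup 11 (limma adjusted p = 0.131), and between 0.93 and 1.19 with no added constant, from the scanner's processed signal or in the deposited matrix, none past the test. It was called without sex in the fit (limma adjusted p = 0.046), without VD pup 7 (0.66, limma adjusted p = 0.033) and without the litter of mother 6 (0.73, limma adjusted p = 0.0066), and was 0.25 without the litter of mother 5 (limma adjusted p = 0.648). Within the VD pups, Defb7 was lower in the litter of mother 5 than in that of mother 6 by 0.47 log2 units, at an unadjusted p below 0.05.

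Defb34 and Defb15 followed Defb7. Defb34 averaged 6.66 ± 0.26 for CSD and 6.44 ± 0.13 for VD (SD, n = 8 each; limma adjusted p = 0.429), detected on 7 and 4 arrays. Defb15 averaged 6.61 ± 0.29 and 6.39 ± 0.18 (limma adjusted p = 0.541), detected on 6 and 3 arrays. Without the litter of mother 5 both differences turned negative (−0.040 and −0.063), and that of Defb15 was 0.11 without CSD pup 3 against 0.17 with it. Over 16 arrays Defb7 correlated with Defb34 (r = 0.897) and Defb15 (0.858). Over 15 arrays, without CSD pup 5, it correlated with the alpha-defensin Defa27 (0.917). Defb34 and Defb15, whose probes match at 54 of 60 bases, correlated with r = 0.92. The gene outside the defensins most like Defb7 was D430040D24Rik (r = 0.974), which ran from 8.74 to 10.08 in CSD and from 7.95 to 9.40 in VD pups.

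**Figure D5:**
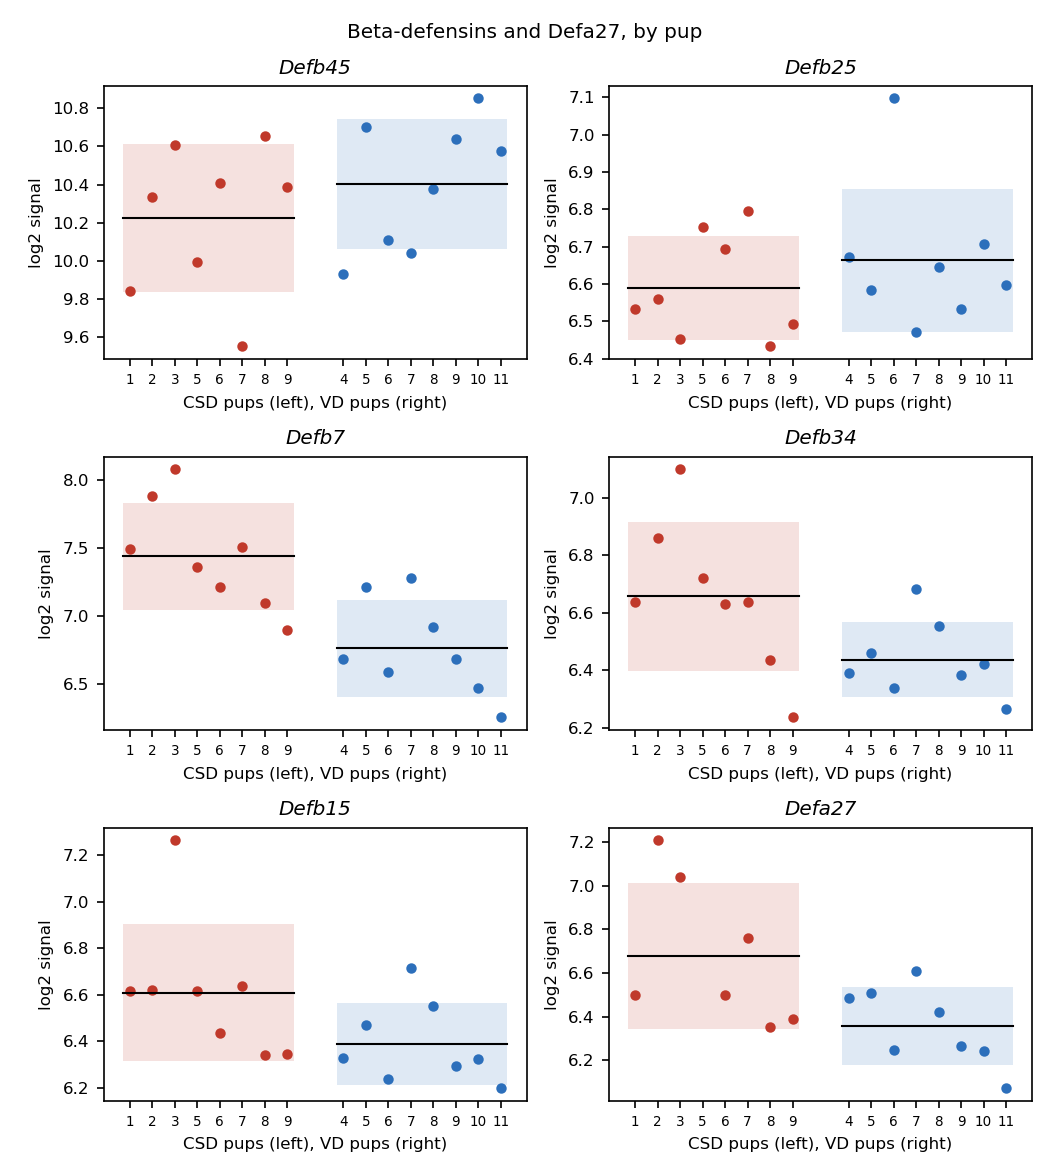
Log2 signal of Defb45, Defb25, Defb7, Defb34, Defb15 and the alpha-defensin Defa27 (without CSD pup 5), 1 point per pup (pup numbers on the axis, CSD left and VD right, line at the group mean, shading 1 SD either side). For Defb7, 5 CSD pups lie above the highest VD pup at 7.28, and in each panel the groups overlap.

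Several beta-defensins were bright in a single pup. Defb18 and Defb22 were well above background only in CSD pup 8, at 7.14 and 7.20, where the next highest values were 6.19 and 6.34 on other arrays of the group. Defb26 was detected only in VD pup 7, at 6.93. The Defb37 spot of CSD pup 8, marked as an outlier and left out of the levels, had a mean raw intensity of 7213 where the other arrays had 28 to 39. It is the only array on which Defb37 was well above background, and the detection counts include it.

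Sex, its interaction with delivery, and litter were compared in the same way, and no defensin gene passed any of these tests. Between males and females 0 of 63 members were called, where 0.0599% of all genes were. The 3 members at an unadjusted p below 0.05 (6.45% of all genes) were Defa27, Defb7 and Defb43, each lower in males, by 0.31, 0.41 and 0.07 log2 units, with a smallest limma adjusted p of 0.705. For the delivery by sex interaction 0 members were called against 0.00272% of all genes, and Defb14 and Defb11 had an unadjusted p below 0.05, as 4.72% of all genes did (limma adjusted p = 0.981 for both). Between mothers 3 and 4 no member was called (0.0872% of all genes), and 3 members had an unadjusted p below 0.05 against 7.69% of all genes: Defb20 and Defb42, lower in the litter of mother 3 by 0.17 and 0.16 log2 units, and Defb33, higher by 0.15. Defb20 and Defb43 were well above background on no array and Defb33 on 1, so these are differences of signal near background. The smallest limma adjusted p was 0.444.

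Between the VD litters of mothers 5 and 6, 0.874% of all genes and no member were called. Here 5 members, Defb14, Defb2, Defb26, Defb47 and Defb7, had an unadjusted p below 0.05, against 11.5% of all genes. Each was lower in the litter of mother 5. For Defb14, a beta-defensin induced by inflammatory signals in epithelia, the difference was −0.28 with a limma adjusted p of 0.0598. Of these 5, only Defb7 was detected on most arrays. Defb14 and Defb26 were well above background on 0 CSD arrays and 1 VD array, Defb2 on 1 CSD array and Defb47 on none. The differences of Defb14, Defb2 and Defb47 are therefore of signal near background. For Defb26, the 1 VD array above background was that of VD pup 7, of mother 6, at 6.93. Its other VD values were 6.09 or below. The litter of mother 6 was all male, a covariate that the fit takes from the other litters.

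The defining markers of colon, small intestine and other cell types were then read. The colonocyte genes Car1, a carbonic anhydrase (14.8 in CSD and 14.5 in VD pups), and Aqp8, a water channel (16.4 and 16.3), were detected on all 16 arrays. The brush border lactase gene Lct was detected on none, while the ileal bile acid carrier Fabp6 was present at 10.01 and 10.13. Of 23 small intestinal genes, 13 were detected on all 16 arrays and 5 on none, and of 16 colon epithelial genes, 15 on all and 0 on none. For the Paneth cell, Mmp7 was detected on 1 CSD array and no VD array. Lyz1 averaged 13.34 in CSD and 13.74 in VD pups, and the basal keratins Krt5 and Krt14 were present at 6.77 and 6.82, and at 8.35 and 8.58. The neutrophil gene S100a8 averaged 7.16 in CSD and 7.20 in VD pups, and the granule gene Ngp was detected on none.

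Of 20 Paneth and deep crypt secretory genes, 13 were detected on all 16 arrays and 2 on none. Of these 20, 1 was called, where 1.25% of all genes were. It was Ang4, an antimicrobial ribonuclease, higher in CSD pups by 3.66 ± 0.84 (SE) log2 units with a limma adjusted p of 0.046. The call held under 11 of 39 alternatives, with adjusted p from 0.021 to 0.529 and no change of direction. Fitted differences were above 0 for 12 and below 0 for 8, with a median of 0.06 against 0.0029 over all genes. The log2 of the summed signal of the list, in which the brightest probes weigh most, ran from 17.78 to 18.93 in CSD pups. In VD pups it ran from 17.11 to 18.53. It was 18.93 in CSD pup 2, 18.53 in VD pup 4 and 18.47 in CSD pup 5. Defa24 in these pups was 8.04, 6.57 and 7.70, so the sum did not follow Defa24 in VD pup 4. Pla2g2a was detected on 8 CSD arrays and 1 VD array, at 8.70 ± 2.07 and 6.51 ± 0.79 (SD, n = 8 each; limma adjusted p = 0.205). It averaged 10.52 in the litter of mother 3, 6.88 in that of mother 4, 6.62 in that of mother 5 and 6.33 in that of mother 6, and the difference between mothers 3 and 4, 3.63 ± 0.50 (SE), passed the test (limma adjusted p = 0.0081). The part of Paneth-like cells in the cryptdin values was not tested.

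Of 34 genes for the processing, induction and receptors of defensins, 29 were detected on all 16 arrays, and differences were above 0 for 17 and below 0 for 17. The chemokine receptor Ccr6, to which some beta-defensins bind, was the 1 gene called, against 1.25% of all genes. It was lower in CSD pups by 0.80 ± 0.18 (SE) log2 units (limma adjusted p = 0.046). The call held under 10 of 39 alternatives, with adjusted p from 0.0020 to 0.565 and no change of direction. Ccl20, the chemokine ligand of Ccr6, differed by −0.89 (limma adjusted p = 0.103). Spdef, a transcription factor of secretory cells, differed by 0.29 (limma adjusted p = 0.053), and Il22ra1, a subunit of the interleukin-22 receptor, by 0.55 (limma adjusted p = 0.163).

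Of 23 small intestinal genes, 1 was called, against 1.25% of all genes. It was the aminopeptidase Anpep, lower in CSD pups by 0.35 log2 units (limma adjusted p = 0.0047, called under 33 of 39 alternatives). The list median was −0.0028. Of 16 colon epithelial genes none was called, with a median of 0.10 and Hoxa13 and Slc26a3 having the smallest p. None of 16 stratified squamous genes was called (median −0.03, with Krtdap and Krt13 smallest in p), nor any of 15 neutrophil genes (median −0.02, with Mpo and Ctsg smallest in p). At an unadjusted p below 0.05 with limma, which 14.5% of all genes passed, there were 7 of 20 Paneth and deep crypt secretory genes, 12 of 34 processing, induction and receptor genes, 3 of 23 small intestinal, 2 of 16 colon epithelial, 2 of 16 squamous and 0 of 15 neutrophil genes. Of the 7 Paneth and deep crypt secretory genes, Ang4, Pla2g2a, Reg4, Mptx2 and Guca2a were higher in CSD pups, and Lyz1 and Nod2 were lower.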

How the data were processed

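The authors deposited, per the file headers, Agilent scanner output for each array, with mean and local background intensity per spot, and a table of log2 normalized values. Per the study's methods these had been corrected and quantile-normalized with limma 3.38, and weakly expressed probes had been filtered out. Here mean and background intensities of all 62976 spots were corrected by normexp (offset 50), outlier-marked spots were left out (65 to 205 per array), and values were quantile-normalized and averaged by probe. Probes above their array's 5% quantile on at least 4 arrays were retained (56366), then averaged by gene name (36711 genes). limma 3.58.1 in R 4.3.3 fitted delivery and sex with mother as a random effect, with Benjamini-Hochberg adjustment over all genes and calls below 0.05. Arrays, 8 per group, and litters, 4 over both groups, limit the precision, and no spot was saturated. Delivery mode did not vary within a litter. The correlation between pups of the same mother, estimated over all genes together, was 0.015 in this fit. Littermates were thus treated as nearly independent, and the calls for Ang4, Ccr6 and Anpep were adjusted little for litter. The deposited log2 table served as an alternative.

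The members and lists were chosen with earlier results of these data known. Genes named were, per family, up to 8 of the highest mean level among those well above background on all arrays of a delivery mode, the 3 of smallest p, and up to 4 members detected on 1 to 3 arrays with the highest single value. List genes named were those called, otherwise the 2 of smallest p, and defining markers. Some list genes, such as Ccl20 and Il22ra1, were named outside this rule. Defa2, Defa23, Defa24, Defb1, Defb15, Defb37 and other members outside this rule were named after their values were seen. The fit was tested on simulated data with independent pups and no litter effect, which cannot show how it handles litters. Probe sequences and mm9 positions are those of the files, and TGCCC was searched on both strands of every probe. RefSeq promoter sequences were not used. Sequences are printed for only some of the probes.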

Additional observations from a re-analysis of the deposited data

Results flagged for a closer look

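In 8 of 44 groups of 7 or 8 pups tested, over 22 named genes, a single pup lay far from the rest by Dixon's ratio of its gap to the whole range. Chance gives this in about 1 in 20 groups, but that share cannot be set against these 8. Defb18, Defb22 and Defb26 were named for a high value on few arrays, and Defa2 and Defb15 were named after their values were seen. For the beta-defensins Defb18 and Defb22, CSD pup 8 was at 7.14 and 7.20, where the next highest CSD values were 6.19 and 6.34. The same pup had the highest value of the CRS gene Defa-rs12, 7.28 against 6.95. For the CRS gene Defa-rs2, CSD pup 6 was at 7.48 against 7.11. For the cryptdin gene Defa2, CSD pup 1 was at 7.18 against 6.48. The Defa2 probes disagreed, since probe A_55_P1961408 was highest in CSD pup 1, at 8.27, and probe A_55_P1961407 in CSD pup 8, at 6.94. For Defb15, CSD pup 3 was at 7.26 against 6.64. In VD pups, Defb25 was at 7.10 in pup 6 against 6.71, and Defb26 at 6.93 in pup 7 against 6.09. Over 16 arrays Defb18 and Defb22 correlated with r = 0.924, and without the 2 arrays farthest from the median with r = −0.111, so the relation rests on those arrays. For Defa-rs12 and Defb22 the values were 0.869 and 0.084.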

How the results depend on the processing

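Arrays and litters limit these results, with 8 arrays and 2 litters per group and most members near background. Under 39 alternatives no defensin gene was called between CSD and VD pups in 35. In the other 4, 1 was called, Defb7: without sex in the fit (adjusted p = 0.046), at an adjusted p below 0.1, without the litter of mother 6 and without VD pup 7, so leaving out single pups gave 0 to 1. Between mothers 5 and 6, 1 member (Defb14) was called in the deposited matrix, at an adjusted p below 0.1 and without CSD pup 6, against 0 in 26 alternatives, again 0 to 1 over single pups. With the scanner's weaker mark of a signal significantly above background, 16 members were detected on every array and 13 on none. Same-numbered pups deviated together with r of −0.05 to 0.22, so numbers do not pair the samples, and the fit with a replicate block, which contains sex, called 0 members (smallest adjusted p = 0.369, Defb7 0.28). Of 844 values of 22 named genes, 13 had the opposite direction, none called. These were Defb25 on slide 1 (0.0011) and without the litter of mother 3 (0.010); Defb26 on slide 2 (0.064) and without the litter of mother 6 (0.033); and Defb45 on slide 2 (0.11) and without the litters of mothers 4 (0.046) and 5 (0.075). Without the litter of mother 5 they were also Defa1 (−0.19), Defb34 (−0.040) and Defb15 (−0.063), and without that of mother 6 Defb1 (0.031). Leaving out single pups gave −0.15 to 0.0060 for Defb26 (positive without VD pup 7) and −0.13 to 0.027 for Defb1 (positive without VD pup 4). The Defb7 difference was 0.96 with no added constant, at most 1.19 from the scanner's processed signal, and 0.93 in the deposited matrix (adjusted p from 0.133 to 0.183). Without CSD pup 8, Defb22 was 0.02 and Defb18 0.09, and without CSD pup 1 Defa2 was 0.10. The Defb37 difference was 1.11 with outlier-marked spots kept, an alternative chosen after seeing the data. The cause of these changes was not tested.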

Other observations

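Several genes that RefSeq (GRCm38.p6) now lists as alpha-defensins carry other names on the array and so fall outside the 64 members. They are AY761184 (Defa39), Gm14851 (Defa38), Gm15292 (Defa40), Gm7849 (Defa42) and Gm7861 (Defa43), each with 1 probe. Gm15292 was at 6.36 ± 0.37 in CSD and 6.08 ± 0.10 in VD pups (SD, n = 8 each), with a limma adjusted p of 0.439. CSD pup 2 was at 7.06 and CSD pup 5 at 6.81, the highest of the 16. Gm15292 was well above background on 2 CSD arrays and on no VD array, and its probe shares a run of 35 bases with a Defa3 probe. Its correlation with Defa24 over 16 arrays was 0.919, and 0.564 without CSD pups 2 and 5. The transcript ENSMUST00000098889, detected on 3 arrays and with a probe that shares a run of 21 bases with the Defa24 probe, gave 0.931 and 0.666. The remaining 4 renamed genes differed between groups by −0.04 to 0.06 log2 units.

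Reg4, a lectin gene of deep crypt secretory cells, had r = 0.776 with Defa24 over 16 arrays, and 0.408 without CSD pups 2 and 5. Its values were 15.72 in CSD pup 2 and 15.12 in CSD pup 5. Ang4 ranged from 10.47 to 15.70 in CSD pups and from 7.77 to 14.52 in VD pups. The VD pup at 14.52 was VD pup 4, while the other VD pups lay at or below 10.46.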
